A study of Mus musculus with 2 samples.

Results

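Ifng, Csf2 and Il12rb2, the genes for the cytokines interferon-γ and GM-CSF and for the β2 chain of the IL-12 receptor, were examined in donor T cells from mouse spleens by single-cell RNA-seq. The members are the rows of these 3 names among the 2000 genes deposited for each library, and all 3 were found in both. The cells came from WT C57BL/6 spleen and bone marrow, were given to lethally irradiated WT BALB/C recipients, and were recovered from recipient spleens on day 6, a setting of haematopoietic cell transplantation (HCT) across a strain difference. Recipients received an anti-IL-2 monoclonal antibody or, for the other library, tacrolimus from day 0 to day 6. Tacrolimus is a calcineurin inhibitor. IL-2 is a growth factor of activated T cells. Both libraries therefore share the donor strain, the irradiated host and the mismatch between them, and no untreated library was analysed here. There was 1 library per treatment and the number of mice behind each is not given, so treatment and library cannot be told apart and no test between treatments was possible. Comparisons between cells of 1 library describe that library, since its cells are not replicates.

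Interferon-γ is the defining cytokine of T helper 1 (Th1) CD4 cells and is also made by cytotoxic CD8 cells. IL-12 from antigen-presenting cells acts through a receptor of the chains Il12rb1 and Il12rb2, activates Stat4 and promotes Ifng transcription, and Il12rb2 is the chain that T cells acquire on activation. GM-CSF, the product of Csf2, acts on myeloid cells and is produced by activated T cells of several kinds, Th1 cells among them. In transplantation across a strain difference these cytokines are known for their part in graft-versus-host disease. Calcineurin activates the transcription factor NFAT after T-cell receptor engagement, and NFAT binds a GGAAA core in the control regions of many cytokine genes.

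In mm10, Ifng lies on chromosome 10 (118441046 to 118445892, plus strand), Csf2 on chromosome 11 (54247271 to 54249667, minus strand) and Il12rb2 on chromosome 6 (67291318 to 67376188, minus strand). All 3 are annotated as protein-coding. The 250 bases before each RefSeq transcription start (GRCm38.p6) are shown because the drug of 1 library inhibits calcineurin, which activates NFAT. They are written 5′ to 3′ on the gene's strand, with GGAAA in capitals. They cover chr10:118440796-118441045, chr11:54249900-54250149 and chr6:67376189-67376438, and the RefSeq start of Csf2 is 232 bases upstream of the start of the gene given above.
Ifng: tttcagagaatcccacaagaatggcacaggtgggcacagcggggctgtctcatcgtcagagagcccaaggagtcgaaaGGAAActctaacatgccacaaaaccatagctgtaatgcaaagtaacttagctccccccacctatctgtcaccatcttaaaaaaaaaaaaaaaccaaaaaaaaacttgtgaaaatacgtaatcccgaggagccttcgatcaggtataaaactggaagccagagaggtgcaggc
Csf2: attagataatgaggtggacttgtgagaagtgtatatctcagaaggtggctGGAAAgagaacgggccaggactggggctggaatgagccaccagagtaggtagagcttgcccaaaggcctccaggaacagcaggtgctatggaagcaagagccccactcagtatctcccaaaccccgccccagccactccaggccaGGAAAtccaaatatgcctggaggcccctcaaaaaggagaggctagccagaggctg
Il12rb2: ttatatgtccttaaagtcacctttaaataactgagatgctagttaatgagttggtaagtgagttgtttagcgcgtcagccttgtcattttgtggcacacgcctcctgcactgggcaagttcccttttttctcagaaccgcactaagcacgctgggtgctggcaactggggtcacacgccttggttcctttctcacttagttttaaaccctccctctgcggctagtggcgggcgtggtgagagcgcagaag
GGAAA was found at 1 place upstream of Ifng, 168 to 172 bases before the start, and at 2 places upstream of Csf2, while the Il12rb2 window held 0. Both strands were searched, and 55.6% of 32851 mouse promoters of the same length hold at least 1 match, so a match is common. TTCNNNGAA, the pattern bound by STAT factors, matched 1 place each upstream of Ifng and Il12rb2 and 0 upstream of Csf2 (7.02% of promoters hold it). TATAAA matched 1 place upstream of Ifng, 25 to 30 bases before the start (12.4% of promoters). TGANTCA, the AP-1 pattern, and GGTGTGA, a T-box pattern, had 0 matches in these windows (6.75% and 3.33% of promoters). A match is a string of letters and not a shown binding site. For Csf2 the 232 bases between the RefSeq start and the start of the annotated gene were not searched, so its counts do not cover them.

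Of the deposited cells, those in which 200 genes or more were detected were kept, 1245 from the anti-IL-2 library (median 11570 unique molecular identifiers, UMIs) and 1475 from the tacrolimus library (median 13254 UMIs). A cell with a Cd4 UMI and none of Cd8a or Cd8b1 was put in the CD4 gate, and a cell with Cd8a or Cd8b1 and no Cd4 in the CD8 gate. The CD4 gate held 274 anti-IL-2 and 279 tacrolimus cells, and the CD8 gate held 705 and 933. A cell was called dividing when at least 3 genes of a cell-division list were detected, which was the case for 26.6% of anti-IL-2 and 71.3% of tacrolimus CD4 cells, and for 69.9% and 88.0% of CD8 cells. Of the general T-cell markers, Cd5 and Cd6 were among the measured genes: Cd5 was detected in 81.8% of anti-IL-2 and 90.0% of tacrolimus CD4 cells, and in 80.1% and 72.0% of CD8 cells. The UMI counts of the anti-IL-2 library were recovered from values that had been integrated with the other library and carry that estimate's error. There were 4 barcodes that occur in both libraries. In 51 B, plasma or erythroid cells without Cd4, Cd8a or Cd8b1 (median 11050 UMIs), each of the 3 genes was seen in 0 cells. Over both libraries this 0 allows up to 5.88%, and by library 10.3% (anti-IL-2, 29 cells) and 13.6% (tacrolimus, 22 cells). Non-dividing anti-IL-2 shares given below, 8.46% for Ifng in CD4 and 7.08% for Il12rb2 in CD8 cells, lie under the 10.3%. Leaving out cells with T-cell transcripts favours a 0, so it cannot decide the background in the gates. Without that condition, Ifng was in 9 of 54 cells of these lineages from the anti-IL-2 library. The tacrolimus library had it in 2 of 29.

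Ifng was detected in about the same share of CD8 cells under both treatments and in fewer CD4 cells under anti-IL-2. A UMI of Ifng was present in 31.3% of anti-IL-2 CD8 cells (95% exact binomial interval 27.9 to 34.9) and in 31.0% of tacrolimus CD8 cells (28.0 to 34.0) after these were thinned to the sequencing depths of the anti-IL-2 cells. The ratio was 1.013 (0.846 to 1.21). In the CD4 gate the shares were 13.5% (9.69 to 18.1) in anti-IL-2 cells and 24.9% (19.9 to 30.4) in tacrolimus cells, a ratio of 0.543 (0.356 to 0.826). All intervals given here cover counting error only. With a size rule of at least 1.5-fold and a share of at least 5% in either library, this CD4 difference counts as lower. By the same rule 35.7% of the 913 CD4 genes tested were lower and 13.4% higher, and the median log2 ratio of all tested genes was -0.27, so a lower share was common in this gate. The CD8 counterparts were 9.03% lower and 8.49% higher of 930 genes, with a median of -0.14.

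The CD4 difference in Ifng was smaller among dividing cells and, as a ratio, as large among non-dividing cells. In dividing CD4 cells the shares were 27.4% in the anti-IL-2 library (20 of 73 cells) and 32.7% in the tacrolimus library, a ratio of 0.837 (0.481 to 1.40), where 10% of genes were lower and 11.1% higher. Non-dividing CD4 cells had 8.46% (17 of 201 cells) against 15.6%, a ratio of 0.544 (0.254 to 1.29), and 25.2% of genes were lower there and 15.3% higher. Neither interval excludes equal shares, nor a difference of the size seen over the whole gate. When the anti-IL-2 CD4 cells were weighted to the tacrolimus mix of dividing and non-dividing cells, their share became 22.0%, against 28.3% in tacrolimus cells at full depth. Dividing CD8 cells had 35.5% against 32.2%, and non-dividing CD8 cells 21.7% against 24.1%. Percentages past the size rule in these CD8 comparisons were 6.6% lower and 8.41% higher for dividing cells, and 15.3% lower and 15.4% higher for non-dividing cells.

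The sum of Ifng UMIs gave a wider CD4 difference than the share of cells. Anti-IL-2 CD4 cells held 0.260 Ifng UMIs per 10000 UMIs (exact Poisson interval 0.205 to 0.325) and tacrolimus CD4 cells 0.756 (0.670 to 0.851). A few cells carried much of the tacrolimus sum: its highest CD4 cell had 44 Ifng UMIs, and the 8 highest of 79 positive cells held 56.0% of all. The highest anti-IL-2 CD4 cell had 19 Ifng UMIs. In the CD8 gate the sums were 0.427 (0.389 to 0.468) and 0.524 (0.488 to 0.563), a ratio of 0.814, while the shares of cells were alike, so no order of the treatments is read for Ifng in CD8 cells. Most positive cells had a single Ifng UMI: 73.0% of positive anti-IL-2 and 57.0% of positive tacrolimus CD4 cells, and 55.2% and 54.7% in the CD8 gate.

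Csf2 was rare in every gate. It was present in 22 of 705 anti-IL-2 CD8 cells (3.12%, interval 1.97 to 4.69) and in 3.70% of depth-matched tacrolimus CD8 cells (2.58 to 5.12), a ratio of 0.843 (0.465 to 1.46). CD4 cells with Csf2 numbered 4 of 274 under anti-IL-2 (1.46%, 0.399 to 3.70), against 4.40% of depth-matched tacrolimus CD4 cells (2.31 to 7.51), a ratio of 0.332 (0.0798 to 1.12). These shares lie under the minimum share of the size rule and under the 5.88% that even the selected background cells allow. No difference between the treatments is therefore called. All 4 positive anti-IL-2 CD4 cells were dividing. Non-dividing anti-IL-2 CD4 cells had Csf2 in 0 of 201 cells, and this 0 allows up to 1.49%, against 3.32% of non-dividing tacrolimus CD4 cells. Among dividing CD4 cells the shares were 5.48% and 5.46%, and among dividing CD8 cells 4.06% and 4.01%. The sum of Csf2 UMIs in CD8 cells was 0.0248 per 10000 (0.0163 to 0.0361) in the anti-IL-2 library and 0.0659 (0.0533 to 0.0806) in the tacrolimus library, a ratio of 0.376. That sum rested on few cells: 4 of the 35 positive tacrolimus CD8 cells held 49.5% of the UMIs and the highest had 21, whereas no anti-IL-2 CD8 cell had more than 3.

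Il12rb2 was detected in fewer anti-IL-2 than tacrolimus cells in both gates. The shares were 21.5% of anti-IL-2 CD4 cells (59 of 274, interval 16.8 to 26.9) and 47.2% of tacrolimus CD4 cells (41.3 to 53.3), a ratio of 0.456 (0.329 to 0.623). In the CD8 gate they were 16.3% (115 of 705, 13.7 to 19.3) and 33.4% (30.4 to 36.5), a ratio of 0.488 (0.390 to 0.606). Both pass the size rule as lower, as did 35.7% of the genes tested in the CD4 gate and 9.03% in the CD8 gate. The gap was present among CD8 cells of either division state. Dividing CD8 cells had 20.3% against 34.2% (ratio 0.593, 0.467 to 0.747) and non-dividing CD8 cells 7.08% against 30.3% (0.234, 0.118 to 0.440). Non-dividing CD4 cells had 13.4% against 34.6%, a ratio of 0.388 (0.218 to 0.676). Dividing CD4 cells had 43.8% against 58.9%, and that ratio of 0.744 (0.488 to 1.11) did not pass the size rule. Per 10000 UMIs, Il12rb2 reached 0.452 (0.379 to 0.536) in anti-IL-2 and 0.800 (0.711 to 0.897) in tacrolimus CD4 cells, and 0.135 (0.114 to 0.159) and 0.311 (0.283 to 0.341) in CD8 cells. The anti-IL-2 CD4 sum rested on few cells: the 6 highest of 59 positive cells held 47.8% of its UMIs, with up to 19 in a cell. In the tacrolimus CD4 gate the 15 highest of 148 held 27.0%, with up to 7. Taken per 10000 UMIs of the 2000 measured genes alone, the CD4 ratio was 0.689. With the integration shift left in, the shares were 28.9% of anti-IL-2 and 47.1% of tacrolimus CD4 cells (ratio 0.614). In the CD8 gate they were 19.8% and 33.2% (0.595). Dividing anti-IL-2 CD4 cells then had 56.8%, beside 59.8% of dividing tacrolimus CD4 cells at full depth.

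The order of the groups was not the same for the 3 genes. For Ifng at full depth, the 3 highest of the 8 combinations of treatment, gate and division state were dividing anti-IL-2 CD8 (35.5%), dividing tacrolimus CD4 (33.2%) and dividing tacrolimus CD8 cells (32.8%), with overlapping intervals. The lowest was non-dividing anti-IL-2 CD4 (8.46%). For Il12rb2 the highest was dividing tacrolimus CD4 (59.8%, 52.6 to 66.7), followed by dividing anti-IL-2 CD4 cells (43.8%, 32.2 to 55.9), whose interval overlaps both its neighbours. The lowest were non-dividing anti-IL-2 CD4 (13.4%) and CD8 cells (7.08%), which overlap each other. The interval of these CD4 cells (9.04 to 18.9) also overlaps that of dividing anti-IL-2 CD8 cells (20.3%, 16.8 to 24.1). For Csf2 the intervals of neighbouring groups overlapped throughout.

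**Figure D1:**
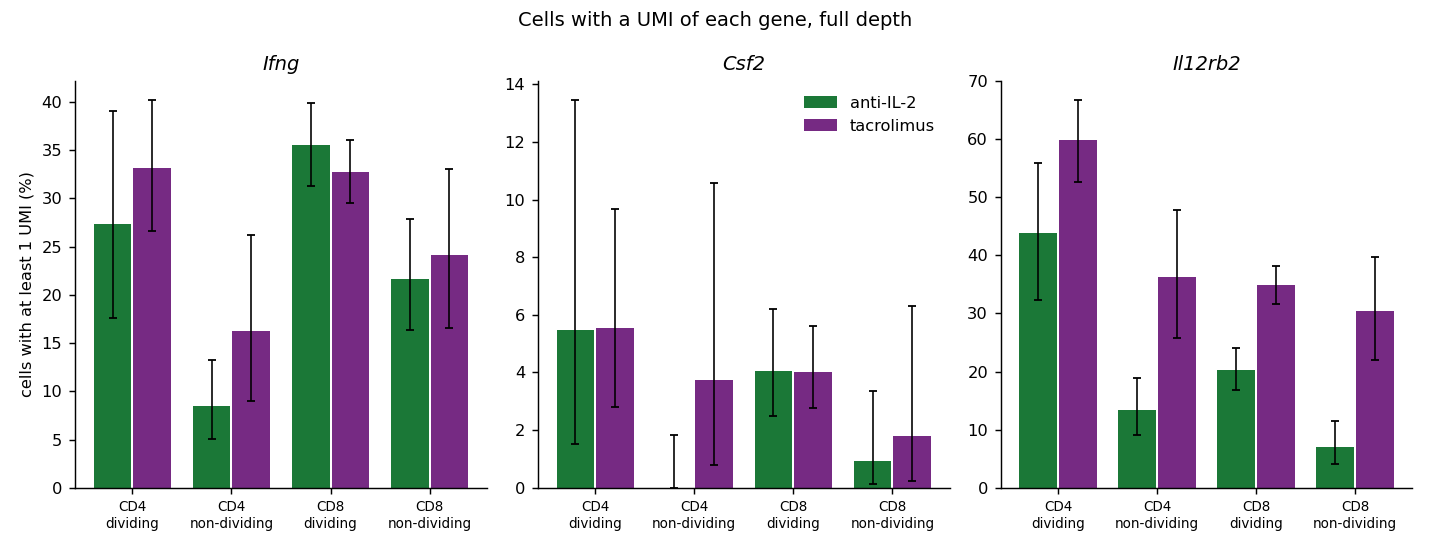
Percentage of cells with at least 1 UMI of each gene at full depth, by gate and division state, for anti-IL-2 (green) and tacrolimus (purple) cells; bars are shares and lines exact 95% binomial intervals. The Il12rb2 share is lower in the anti-IL-2 library in each of the 4 groups (7.08 to 43.8% against 30.4 to 59.8%), with overlapping intervals in dividing CD4 cells. Ifng lies at similar levels in CD8 cells.

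Genes of the same pathways were counted by the same rule between the treatments. The counts include members, Il12rb2 in the IL-12 and Th1 list and Ifng among the cytokines. Their results given above are thus counted again and are no separate support. Of 21 genes listed for the IL-12 and Th1 pathway, 7 were among the measured genes and 5 were frequent enough to test. Il12rb2 itself was lower under anti-IL-2 in both gates, and 0 of the 5 were higher in either. Eomes, a T-box factor that drives Ifng in CD8 cells, was found in 36.0% of anti-IL-2 and 33.6% of tacrolimus CD8 cells. Il12rb1, Tbx21 and Stat4 were not analysed here. Of 10 tested T-cell cytokine and chemokine genes in the CD4 gate, 6 were lower (Ifng, Il10, Ccl3, Ccl4, Ccl5 and Csf1) and 2 were higher, the TNF-family ligands Ltb and Tnfsf8, in a gate where 35.7% of all tested genes were lower and 13.4% higher. Ccl3, an inflammatory chemokine, was in 4.38% of anti-IL-2 and 14.5% of tacrolimus CD4 cells, but in 29.2% and 29.4% of CD8 cells. Among CD8 cells 0 of 8 tested genes were lower and 2 were higher, Tnfsf8 and the chemokine Xcl1 (16.5% against 3.93%), beside 9.03% lower and 8.49% higher of all tested genes.

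Genes known to be induced by interferon-γ were more often higher than lower under anti-IL-2 in the CD4 gate. Of 12 measured, 10 were tested there: 6 were higher (Socs1, Gbp5, Iigp1, Irgm2, Tgtp1 and Tgtp2) and 1, Irf8, was lower. Of all tested genes in this gate 13.4% were higher and 35.7% lower. Tgtp2, an interferon-inducible GTPase, was in 25.2% of anti-IL-2 and 8.95% of tacrolimus CD4 cells, and Socs1, an inhibitor of cytokine signalling, in 49.6% and 28.9%. The median log2 ratio of the 10 was 0.84 beside -0.27 for all tested genes. In the CD8 gate 1 of 8 passed, Tgtp2 (15.2% against 9.46%), near the 8.49% of all tested genes that were higher there (9.03% were lower). The list's median was 0.36 beside -0.14. Many of these genes also respond to type I interferon, which this list does not separate. In the GM-CSF axis, Csf2ra, the α chain of the GM-CSF receptor, was in 4.38% of anti-IL-2 and 2.59% of tacrolimus CD4 cells and in 5.39% and 4.17% of CD8 cells. Bhlhe40, a factor needed for GM-CSF production by mouse T cells, was in 36.9% and 58.7% of CD4 cells and in 51.6% and 63.2% of CD8 cells, lower by the rule in the CD4 gate alone.

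Within each library, dividing cells had Ifng more often than non-dividing cells at full depth. The shares were 27.4% and 8.46% in anti-IL-2 CD4 cells (ratio 3.24, 1.61 to 6.58), 33.2% and 16.2% in tacrolimus CD4 cells (2.04, 1.12 to 4.03), 35.5% and 21.7% in anti-IL-2 CD8 cells (1.64, 1.18 to 2.32), and 32.8% and 24.1% in tacrolimus CD8 cells (1.36, 0.913 to 2.10). Dividing cells were deeper in all 4 comparisons, with median UMIs of 14296 against 8401 and 13202 against 8759 in the CD4 gate, and 16255 against 10058 and 14667 against 8651 in the CD8 gate (anti-IL-2, then tacrolimus). In these comparisons 57.1% (anti-IL-2 CD4), 47.7% (tacrolimus CD4), 52.6% (anti-IL-2 CD8) and 56.3% (tacrolimus CD8) of all tested genes were higher in dividing cells by the size rule. Lower by the rule were 7.31%, 5.67%, 5.29% and 2.02%, so a higher share in dividing cells was the usual case. After every cell was thinned to 5000 UMIs the Ifng shares were 11.9% and 4.70% in anti-IL-2 CD4, 18.8% and 9.50% in tacrolimus CD4, 16.7% and 13.7% in anti-IL-2 CD8, and 16.3% and 14.9% in tacrolimus CD8 cells. The CD4 ratios stayed above 1.5 (2.52 and 1.98) and the CD8 ratios fell below it (1.222 and 1.096), with 43%, 37.7%, 41.2% and 38.7% of genes higher in the same order. All 4 intervals of the thinned ratios include 1.

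For Il12rb2 the shares by division state went 1 way in anti-IL-2 cells, while the tacrolimus cells gave no clear order. Anti-IL-2 cells had it more often when dividing, in 43.8% against 13.4% of CD4 cells (ratio 3.26, 1.89 to 5.66) and in 20.3% against 7.08% of CD8 cells (2.87, 1.66 to 5.31). At 5000 UMIs these were 19.9% against 8.06% (2.47, 1.12 to 5.41) and 7.03% against 3.54% (1.99, 0.907 to 5.58). Tacrolimus CD8 cells had it in 34.8% of dividing and 30.4% of non-dividing cells at full depth, but in 12.8% and 19.0% at 5000 UMIs, a ratio of 0.671 (0.408 to 1.11). Their UMI sums were 0.293 per 10000 in dividing and 0.539 in non-dividing cells, which goes against the full-depth shares, so no order is read for them. Tacrolimus CD4 cells had 59.8% and 36.2% at full depth and 30.5% and 26.3% at 5000 UMIs, beside sums of 0.775 and 0.895, and no order is read there either. The difference between the libraries in this ratio was not tested.

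Csf2 was seen in 20 of 493 dividing and 2 of 212 non-dividing anti-IL-2 CD8 cells (4.06% and 0.943%), and in 33 of 821 and 2 of 112 tacrolimus CD8 cells (4.02% and 1.79%). With 2 positive non-dividing cells in each library the ratios, 4.30 and 2.25, had intervals from 1.04 to 37.9 and from 0.576 to 19.4. In tacrolimus CD4 cells the shares were 5.53% and 3.75%.

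**Figure D2:**
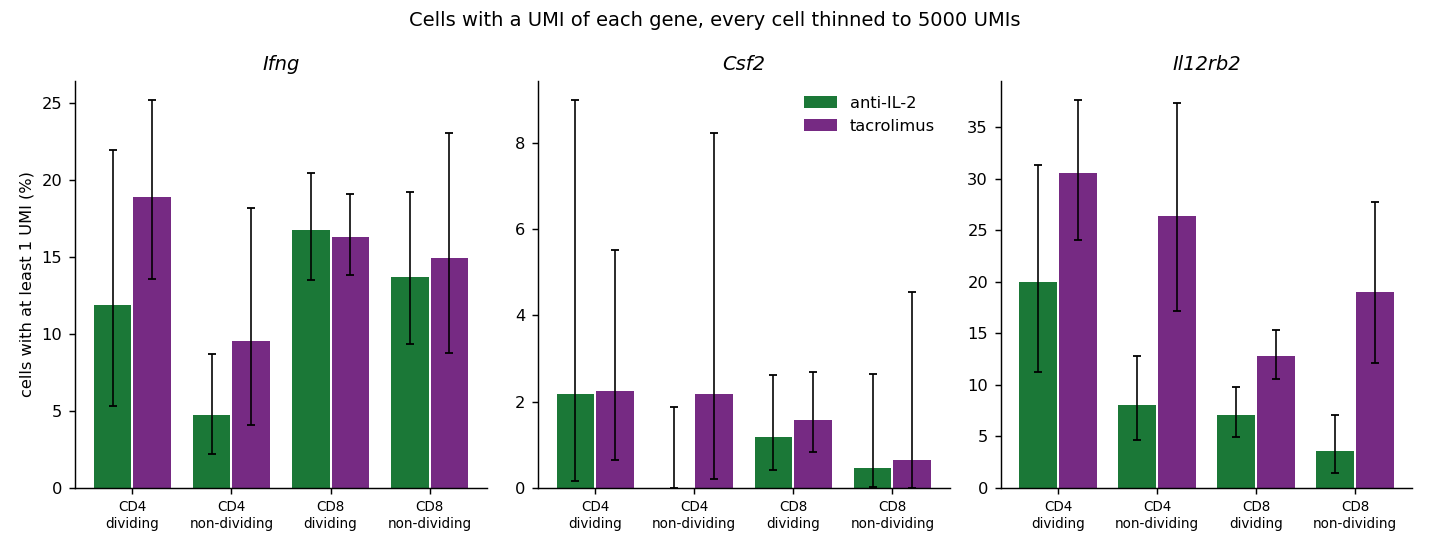
The same shares after every cell was thinned to 5000 UMIs and shallower cells were left out, in percent of cells, with the same groups and colours but narrower scales; lines are exact 95% binomial intervals. The gaps between dividing and non-dividing cells shrink for Ifng in CD8 cells (16.7 against 13.7% and 16.3 against 14.9%). Il12rb2 shares stay lower in the anti-IL-2 library, with overlapping intervals in dividing CD4 cells.

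Cells with Ifng were then set against cells without it inside each library. There were 37 Ifng-positive and 237 Ifng-negative anti-IL-2 CD4 cells, 79 and 200 tacrolimus CD4 cells, 221 and 484 anti-IL-2 CD8 cells, and 296 and 637 tacrolimus CD8 cells. Positive cells were deeper, with medians of 12599 against 9101 UMIs in anti-IL-2 CD4, 13622 against 10940 in tacrolimus CD4, 16255 against 12285 in anti-IL-2 CD8 and 15960 against 13061 in tacrolimus CD8 cells. They were also more often dividing, 54.1% against 22.4%, 83.5% against 66.5%, 79.2% against 65.7% and 90.9% against 86.7% in the same order. The share in Ifng-negative cells was therefore standardised to the depth classes (3 per gate) and division states of the Ifng-positive cells before ratios were taken.

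Csf2 was concentrated in Ifng-positive CD8 cells in both libraries. It was detected in 16 of 221 Ifng-positive and 6 of 484 Ifng-negative anti-IL-2 CD8 cells, 7.24% (4.19 to 11.5) against 1.24%, or 1.56% when standardised, a ratio of 4.66 (1.77 to 11.8, with the standardised share taken as a share of all Ifng-negative cells, as in the ratios that follow). In tacrolimus CD8 cells it was detected in 24 of 296 and 11 of 637 cells, 8.11% (5.26 to 11.8) against 1.73%, or 2.67% standardised, a ratio of 3.03 (1.57 to 6.03). By the size rule 5.21% of 941 tested genes in the anti-IL-2 and 4.04% of 916 in the tacrolimus CD8 cells were higher in Ifng-positive cells. Among the genes higher in both libraries Csf2 ranked first by the smaller of its ratios. It met the 5% minimum only through its share in Ifng-positive cells, so the rank is no separate support. At 5000 UMIs, with Ifng thinned as well, the shares were 2.01% against 0.756% and 2.95% against 1.17%, which are a few cells each and under the 5% that the rule needs. In tacrolimus CD4 cells Csf2 was in 7 of 79 and 7 of 200 cells, 8.86% against 3.50% (3.88% standardised), a ratio of 2.28 (0.684 to 6.99) whose interval includes 1. Anti-IL-2 CD4 cells held 1 and 3 positive cells, too few for a comparison.

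Il12rb2 was detected in a larger share of Ifng-positive than Ifng-negative cells in each group, but the intervals of all 4 standardised ratios include 1, so no difference clear of counting error is read. Its shares in Ifng-positive and Ifng-negative cells were 43.2% and 18.1% in anti-IL-2 CD4 (27.0% standardised, ratio 1.60, 0.864 to 2.80), the only group past the size rule, where 17.1% of 947 genes were higher. With the integration shift left in, that ratio was 1.45, which misses the rule. They were 64.6% and 48.5% in tacrolimus CD4 cells (57.9% standardised, ratio 1.11, 0.785 to 1.56), where 13.4% of 928 genes were higher. In CD8 cells they were 23.1% and 13.2% under anti-IL-2 (16.1%, ratio 1.44, 0.986 to 2.06) and 40.5% and 31.4% under tacrolimus (36.0%, ratio 1.13, 0.897 to 1.41). At 5000 UMIs the shares in positive and negative cells were 20.3% and 10.5%, 33.8% and 28.4%, 7.25% and 5.72%, and 15.2% and 13.2%, in the order just given.

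By the number of Ifng UMIs in a CD8 cell (0, 1, 2 to 3, and 4 or more), Csf2 was found in 1.24, 5.74, 5.71 and 17.2% of anti-IL-2 cells and in 1.73, 6.79, 4.76 and 18.0% of tacrolimus cells. The highest class held 29 and 50 cells, with 5 and 9 Csf2-positive cells and intervals of 5.85 to 35.8% and 8.58 to 31.4%. Il12rb2 was found in 13.2, 19.7, 25.7 and 31.0% of anti-IL-2 and in 31.4, 34.0, 42.9 and 58.0% of tacrolimus CD8 cells of these classes. The median depth also differed over the classes, from 12285 UMIs at 0 to 22385 at 4 or more in anti-IL-2 CD8 cells and from 13061 to 22380 in tacrolimus CD8 cells. Its part in these shares was not tested within the classes. Tacrolimus CD4 cells had Il12rb2 in 48.5, 57.8, 73.7 and 73.3% of the classes, the upper classes resting on 19 and 15 cells.

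**Figure D3:**
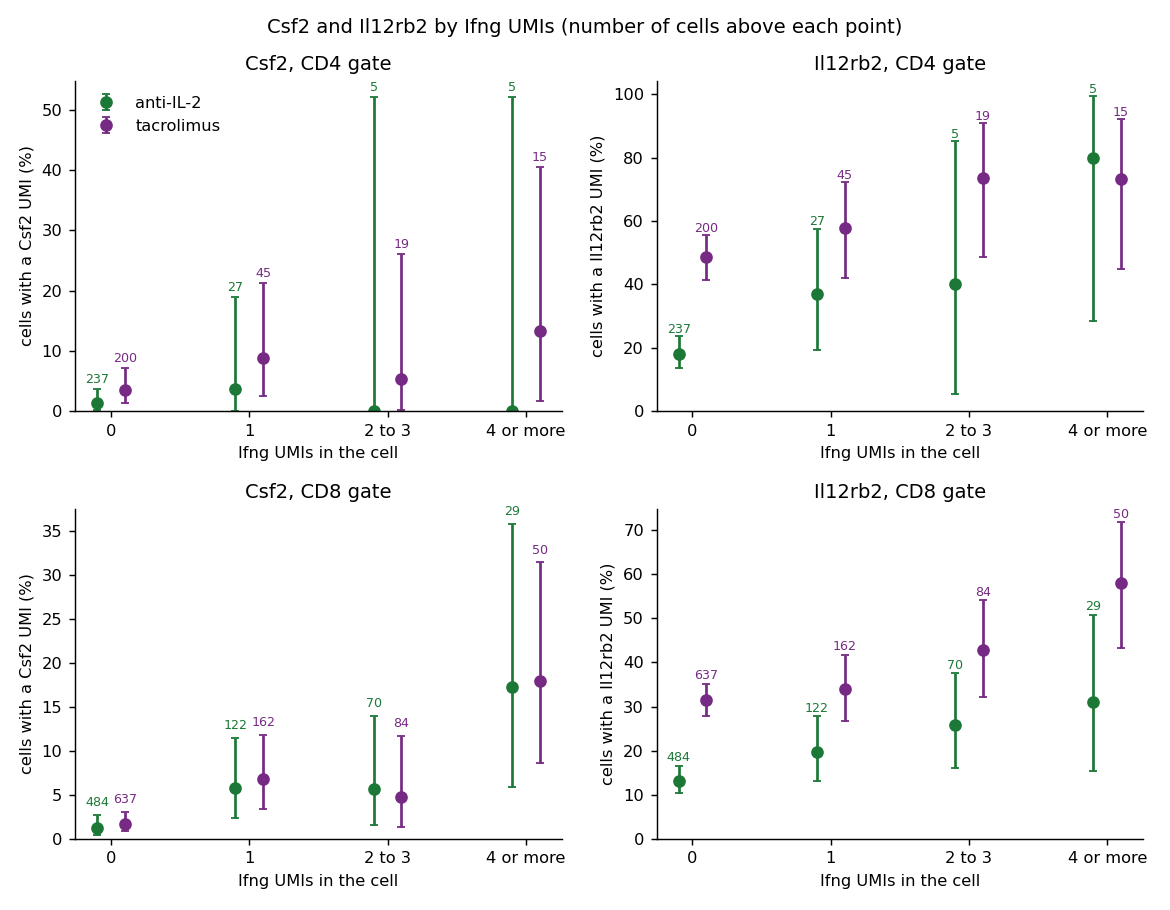
Percentage of cells with a Csf2 UMI (left) or an Il12rb2 UMI (right) against the number of Ifng UMIs in the cell, in the CD4 (top) and CD8 gate (bottom), for anti-IL-2 (green) and tacrolimus (purple) cells; lines are exact 95% binomial intervals and numbers count cells. In the CD8 gate Csf2 is lowest in cells with 0 Ifng UMIs (1.24 and 1.73%) and highest in those with 4 or more (17.2 and 18.0%).

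Read the other way, most Csf2-positive CD8 cells also had Ifng. Ifng was in 16 of 22 Csf2-positive anti-IL-2 CD8 cells (72.7%, 49.8 to 89.3), against 30.01% of Csf2-negative cells (35.3% standardised). It was in 24 of 35 Csf2-positive tacrolimus CD8 cells (68.6%, 50.7 to 83.1), against 30.3% (38.2% standardised). Il12rb2 was in 11 of 22 Csf2-positive anti-IL-2 CD8 cells, against 15.2% of Csf2-negative cells (20.6% standardised), and in 18 of 35 tacrolimus cells (51.4%), against 33.6% (46.4% standardised). All 3 genes were detected together in 1 anti-IL-2 and 5 tacrolimus CD4 cells, and in 7 and 13 CD8 cells. CD8 cells with all 3 had median depths of 24250 and 26036 UMIs, beside 12008 and 11935 in CD8 cells with none. No member was detected in 70.1% of anti-IL-2 and 36.6% of tacrolimus CD4 cells, and in 59.3% and 46.2% of CD8 cells. Cells with Il12rb2 alone made up 15.3% of anti-IL-2 and 32.6% of tacrolimus CD4 cells, and 8.51% and 20.9% of CD8 cells.

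Over all measured genes, more were higher than lower in Ifng-positive cells of the CD4 gate in both libraries and of the CD8 gate under tacrolimus, while the counts in anti-IL-2 CD8 cells were close to equal. In the CD4 gate 162 genes were higher and 108 lower in the anti-IL-2 library, and 124 higher and 48 lower in the tacrolimus library. Of these, 45 were higher in both (27.8% of the anti-IL-2 and 36.3% of the tacrolimus list) and 13 were lower in both (12.04% and 27.1%). CD8 cells had 49 genes higher and 48 lower under anti-IL-2 and 37 and 18 under tacrolimus. With a minimum share of 2% in place of 5%, lower genes outnumbered higher ones in anti-IL-2 CD8 cells (71 higher and 96 lower). By the 5% rule 16 CD8 genes were higher in both libraries (32.7% and 43.2%) and 4 lower in both (8.33% and 22.2%). Of all tested genes, 17.1%, 13.4%, 5.21% and 4.04% were higher in anti-IL-2 CD4, tacrolimus CD4, anti-IL-2 CD8 and tacrolimus CD8 cells. Lower were 11.4%, 5.17%, 5.1% and 1.97% in the same order. Genes tested in both libraries numbered 873 in the CD4 and 883 in the CD8 gate.

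Among CD4 genes higher in both libraries Il10, an anti-inflammatory cytokine that Th1 cells can also make, came first. Like Csf2 in CD8 cells, it met the 5% minimum only through its share in Ifng-positive cells. So did Creb3l2, Gzmm and Serpina3f in both libraries and Ccl3 in the anti-IL-2 library, so their ranks are no separate support either. Il10 was in 4 Ifng-positive anti-IL-2 CD4 cells (10.8%, against 1.44% of standardised Ifng-negative cells) and in 15 Ifng-positive tacrolimus CD4 cells (19.0% against 2.12%). Ccl3 was in 21.6% against 4.91% of anti-IL-2 and 32.9% against 9.38% of tacrolimus CD4 cells, and Ccl4, a chemokine of the same family, in 24.3% against 6.84% and 27.8% against 10.3%. The other named genes that were higher in both were Creb3l2, Nr4a2, Gzmm, Ermn and Serpina3f. Nr4a2, an orphan nuclear receptor induced after T-cell receptor engagement, was in 21.6% against 6.37% and 21.5% against 8.50%. Gzmm, a granzyme, was in 10.8% against 2.87% and 10.1% against 4.16%. Lower in both were Ifi204, Nrn1, Sh3bp5, Pou2af1 and Rtp4. Ifi204 and Rtp4 are interferon-inducible: Ifi204 was in 5.41% against 17.2% of anti-IL-2 and 5.06% against 14.3% of tacrolimus CD4 cells, and Rtp4 in 29.7% against 53.3% and 12.7% against 26.1%. Several of these anti-IL-2 shares rest on 1 to 5 positive cells.

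Among CD8 cells the genes named after Csf2 were Npnt, Plxnd1, Camk2n1, Rgs16, Csf1, Ccl3 and Serpine2. Of these, Npnt, Plxnd1 and Serpine2 met the 5% minimum only through Ifng-positive cells in both libraries. The same held for Csf1 under anti-IL-2 and Camk2n1 under tacrolimus. Csf1, the gene of the macrophage growth factor M-CSF, was in 7.24% of Ifng-positive and 4.30% of standardised Ifng-negative anti-IL-2 cells, and in 9.80% and 5.30% of tacrolimus cells. Rgs16, a regulator of G-protein signalling, was in 30.8% against 15.8% and 20.6% against 12.1%. Ccl3 was in 45.7% against 20.4% and 43.9% against 26.9%. Serpine2, a serine protease inhibitor, was in 9.50% against 2.53% and 6.08% against 3.75%. Lower in both were Id3, Tmem176a, Cd74 and Fcgrt. Id3, an inhibitor of E proteins that marks naive and memory-like T cells, was in 14.5% against 29.6% of anti-IL-2 and 2.70% against 5.49% of tacrolimus CD8 cells.

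**Figure D4:**
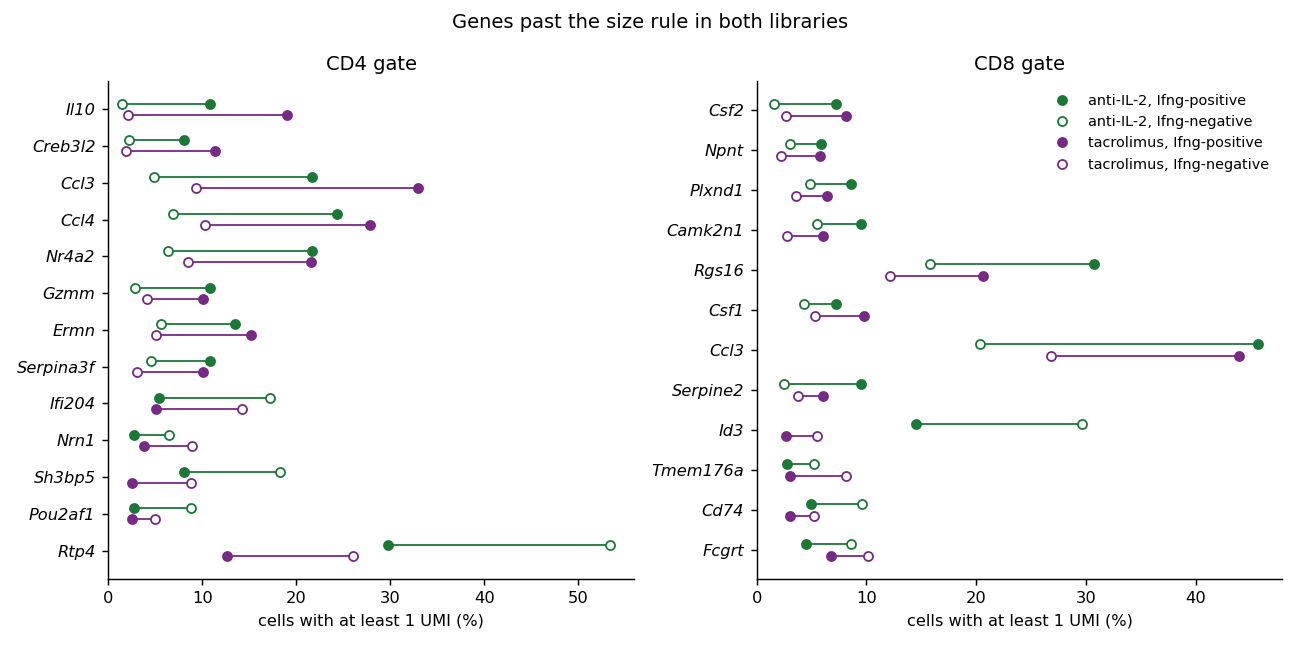
Percentage of cells with a UMI of each gene named in both libraries, in Ifng-positive (filled) and standardised Ifng-negative (open) cells of the CD4 (left) and CD8 gate (right), for anti-IL-2 (green) and tacrolimus (purple). Ccl3 has wide gaps in both gates (for CD8 cells 45.7 against 20.4% and 43.9 against 26.9%), and Rtp4 and Id3 are lower in Ifng-positive cells.

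Gene lists gave the following counts in Ifng-positive against Ifng-negative cells. Ifng-negative shares of single genes from these lists are standardised ones. They stand beside 17.1%, 13.4%, 5.21% and 4.04% of all tested genes higher, and 11.4%, 5.17%, 5.1% and 1.97% lower, in anti-IL-2 CD4, tacrolimus CD4, anti-IL-2 CD8 and tacrolimus CD8 cells. Of the early genes of NFAT and T-cell receptor signalling, 5 of 12 tested genes were higher in anti-IL-2 CD4, 5 of 10 in tacrolimus CD4, 2 of 10 in anti-IL-2 CD8 and 4 of 9 in tacrolimus CD8 cells, and 0 were lower in any. Their median log2 ratios were 0.43, 0.79, 0.28 and 0.33, beside 0.08, 0.07, 0.06 and 0.03 for all tested genes. Irf4, a factor induced by receptor signal strength, was higher in all 4 groups, for example in 17.2% against 11.04% of anti-IL-2 and 20.6% against 13.3% of tacrolimus CD8 cells. Nr4a1, another early nuclear receptor, was in 24.3% against 5.27% of anti-IL-2 and 31.6% against 14.6% of tacrolimus CD4 cells. Early genes were thus detected with Ifng in both libraries, and an effect of either treatment on this was not tested.

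Of the naive and stem-like genes 0 were higher in any group. Lower were 2 of 6 in anti-IL-2 CD4 (Ccr7 and Il7r), 4 of 5 in tacrolimus CD4 (Tcf7, Ccr7, Id3 and Il6ra) and 1 of 2 in tacrolimus CD8 cells (Id3). In anti-IL-2 CD8 cells Tcf7, Ccr7 and Id3 were lower. Tcf7, the gene of the naive and memory factor TCF-1, was in 16.7% of Ifng-positive and 29.0% of standardised Ifng-negative anti-IL-2 CD8 cells. Of the IL-12 and Th1 genes 2 of 5 were higher in anti-IL-2 CD4 cells, Il12rb2 and Eomes, and 0 of 5 in each of the other 3 groups. Of the cytokines and chemokines 4 of 9 were higher in anti-IL-2 CD4, 5 of 10 in tacrolimus CD4, 5 of 10 in anti-IL-2 CD8 and 5 of 9 in tacrolimus CD8 cells. Ccl3 and Ccl4 were among them in all 4 groups, and Tnfsf8 was lower in both anti-IL-2 groups. The member Csf2 was also counted among the higher ones in every group but anti-IL-2 CD4 cells, so its result is repeated there. Most cytotoxic genes did not pass the rule, with 3 of 11, 1 of 12, 1 of 11 and 0 of 12 higher in the same order, where 17.1%, 13.4%, 5.21% and 4.04% of all tested genes were. Of the inhibitory receptors 3 of 9, 2 of 9, 1 of 9 and 0 of 8 were higher. In the CD8 gate the counts of both lists lie near the shares over all genes. Havcr2, the gene of TIM-3, which is known from Th1 cells, was in 43.2% against 12.9% of anti-IL-2 and 64.6% against 38.7% of tacrolimus CD4 cells.

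Interferon-γ induced genes did not go with Ifng in the same cells in a common direction. Higher and lower counts were 1 and 3 of 10 in anti-IL-2 CD4, 1 and 0 of 8 in tacrolimus CD4, 0 and 1 of 8 in anti-IL-2 CD8, and 0 and 0 of 8 in tacrolimus CD8 cells. Irgm2, one of these GTPases, was in 5.41% of Ifng-positive and 11.3% of standardised Ifng-negative anti-IL-2 CD4 cells but in 13.9% and 7.89% of tacrolimus CD4 cells. In the GM-CSF axis 3 of 5 were higher in anti-IL-2 CD4 cells (Csf2ra, Bhlhe40 and Cish) with Il7r lower, where 17.1% of all tested genes were higher and 11.4% lower. Of this list 1 of 4 was higher in tacrolimus CD4 cells (Cish), 0 of 4 in anti-IL-2 CD8 cells and 0 of 5 in tacrolimus CD8 cells, where Csf2ra was lower. Bhlhe40 was in 73.0% against 40.8% of anti-IL-2 CD4 and 70.9% against 66.0% of tacrolimus CD4 cells.

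The genes whose detection was most like that of each member were ranked by the phi coefficient across cells of the tacrolimus library, averaged over the CD4 and CD8 gates, 279 and 933 cells. Phi is given as a description, and it is not corrected for depth, which the cells' detections share. For Ifng they were Ccl3 (0.29 under anti-IL-2 and 0.26 under tacrolimus), Nr4a2 (0.21 and 0.22), Ccl4 (0.29 and 0.22), Nr4a1 (0.16 and 0.21) and Havcr2 (0.30 and 0.21), so the values were of the same order in both libraries. For Csf2 they were Nrgn, Nr4a1, Rgs16, Irf4 and Tns1, with phi of 0.0028 to 0.092 under anti-IL-2 and 0.18 to 0.23 under tacrolimus. For Il12rb2 they were Tnfrsf4, Tomm70a, Havcr2, Lap3 and Tnfrsf9, at 0.097 to 0.29 under anti-IL-2 and 0.22 to 0.25 under tacrolimus. Tnfrsf4 and Tnfrsf9 encode the costimulatory receptors OX40 and 4-1BB. The genes named for each member were chosen by their tacrolimus values, which favours higher phi there. A lower anti-IL-2 phi is therefore not read as a difference between the libraries. For Csf2 the anti-IL-2 CD4 phi also rests on 4 positive cells. Between members phi was 0.10 under anti-IL-2 and 0.13 under tacrolimus for Ifng with Csf2, 0.17 and 0.12 for Ifng with Il12rb2, and 0.12 and 0.094 for Csf2 with Il12rb2.

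Markers of other cells moved with some of these groups. Their shares are given without standardisation. Any of the 6 measured natural killer (NK) cell genes was detected in 45.9% of Ifng-positive and 19.8% of Ifng-negative anti-IL-2 CD4 cells, 41.8% and 41.0% of tacrolimus CD4 cells, 89.1% and 76.9% of anti-IL-2 CD8 cells, and 92.9% and 87.3% of tacrolimus CD8 cells. Their summed level per 10000 UMIs had medians of 2.20 against 1.39 in anti-IL-2 and 2.68 against 2.48 in tacrolimus CD8 cells, with ranges of 0 to 26.3 against 0 to 30.5 and 0 to 26.0 against 0 to 19.7. In both CD4 groups and both libraries the median was 0, with ranges of 0 to 5.51 against 0 to 4.07 and 0 to 5.43 against 0 to 12.6. Most of these detections were of Prf1 and Eomes, which T cells also express. The other 4 genes did not share a direction. Fcer1g, the gene of a signalling adaptor, was in 11.8% of Ifng-positive against 6.20% of Ifng-negative anti-IL-2 CD8 cells and in 22.0% against 17.4% of tacrolimus CD8 cells. In the CD4 gate it was in 5.41% against 0.422% under anti-IL-2 and in 3.80% against 6% under tacrolimus. Tyrobp, another adaptor, was in 0.905% against 2.07% of anti-IL-2 and 5.07% against 2.35% of tacrolimus CD8 cells. The NK receptor gene Klre1 was in 1.81% against 2.27% and 7.43% against 5.81% of these cells. Klrb1c, also an NK receptor gene, was in 1.36% against 1.45% and 3.38% against 4.87%. In CD4 cells with Ifng, Klrb1c was at 0 in both libraries, against 5.91% of Ifng-negative anti-IL-2 and 1% of Ifng-negative tacrolimus CD4 cells. Without cells with at least 3 NK markers, the standardised Csf2 ratios in CD8 cells were 4.47 under anti-IL-2 and 3.45 under tacrolimus. At least 1 of 11 exocrine pancreas genes was detected in 8.60% of Ifng-positive and 6.40% of Ifng-negative anti-IL-2 CD8 cells and in 74.0% and 73.6% of tacrolimus CD8 cells. In CD4 cells the same shares were 5.41% and 10.97%, and 68.4% and 70.5%. Exocrine pancreas genes thus differ between the libraries far more than between cells with and without Ifng. Their part in the differences between treatments was not tested.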

How the data were processed

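The 5′ single-cell libraries (10x Chromium, NextSeq500) were prepared per the labels' protocols, and Cell Ranger 3.1.0, Seurat and mm10 are named in the submitters' processing notes. The choice of cells before deposit: not given in the sources used here. Both files hold natural log values of UMIs scaled by the authors to a fixed total per cell and then deposited. The tacrolimus values are ln(1 + 50000 × UMIs / cell total), and 100% gave whole UMIs (tolerance 0.001). Of the deposited anti-IL-2 values 13.9% lie below 0 and 42.0% at exactly 0, as after integration, so UMI totals and the integration shifts (shared by the 30 nearest cells) were estimated, and values above 0.5 of the 1-UMI level counted as detections. In 374 anti-IL-2 cells the total could be had directly, and the fit was within 1.25-fold in 95.5% of these. Its settings were chosen on simulated splits of the tacrolimus library integrated with Seurat 5.3.0 and tested on simulated data from a further split on which no setting was chosen. In all, 308 anti-IL-2 columns repeated in the tacrolimus file were used once.

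Cells needed 200 detected genes (leaving out 19.7% in the anti-IL-2 and 12.6% in the tacrolimus library) and fewer than 2 markers of another lineage to enter a gate. Cells with both Cd4 and Cd8a or Cd8b1 were set aside, and no doublet caller was run, so doublets may remain among the deepest cells. Between treatments, tacrolimus cells were thinned by rank to the depths of anti-IL-2 cells. In 3 of the 4 groups by gate and division state the anti-IL-2 cells are deeper on median and were not thinned, so the match there is one-sided. Shares have exact Clopper-Pearson intervals at 95% (scipy 1.17.1), and a count of 0 allows 3 counts. The size rule needs a 1.5-fold ratio and a share of 5% on either side, and genes below that share on both sides were not tested. A gene can thus meet the minimum through its higher side alone, as several named genes did, whether called higher or lower. For Ifng-positive against Ifng-negative cells, shares were standardised over 3 depth classes and the division state. The thinned shares there are expected values; they replaced a random draw after the draw had been seen. Named genes are up to 8 higher and 5 lower per gate that pass the size rule in both libraries, ranked by the smaller log2 ratio. The members and lists were chosen with earlier results of these data known. Promoters are from RefSeq. A few list members are not reported here.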

Additional observations from a re-analysis of the deposited data

How the results depend on the processing

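No paired analysis was possible because each treatment has 1 library and no test. For the member shares, 54 of 60 alternative values between treatments, 70 of 71 by division state and 48 of 48 for Ifng-positive against Ifng-negative cells lay within the counting interval of the main ratio. The alternatives reuse largely the same cells. Some intervals are very wide, such as 0.0232 to 8.80 for Csf2 by Ifng in anti-IL-2 CD4 cells, so lying within them says little there. The exceptions between treatments were ratios from summed UMIs per 10000 for Ifng (0.344 in CD4, 0.814 in CD8) and Csf2 in CD8 (0.376, or 0.406 over the 2000 genes alone), from the 2000 genes alone for Il12rb2 in CD4 (0.689), and from cells with a direct total for Ifng in CD8 (0.823). By division state, Il12rb2 in tacrolimus CD8 cells became 0.671 when thinned to 5000 UMIs, the other direction. The causes were not tested. Ratios near 1.5 or shares near 5% crossed the size rule while staying inside these intervals. By division state, Ifng in anti-IL-2 CD8 cells missed it with Mki67 as the division marker (1.463) or when thinned (1.222), Il12rb2 in tacrolimus CD4 cells missed it when thinned (1.16) or without cells with 2 division genes (1.48), and without the gene minimum Csf2 in tacrolimus CD4 (2.10) and Ifng in tacrolimus CD8 cells (1.67) passed it. For Ifng-positive against Ifng-negative cells, Il12rb2 in anti-IL-2 CD8 cells passed it without standardisation (1.75) or with the shift left in (1.52), Il12rb2 in anti-IL-2 CD4 cells missed it with the shift left in (1.45), and Csf2 in anti-IL-2 CD4 cells passed it with Cst3 not counted (1.96).

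Counts of genes moved by over 1.5 times in 18 of 36 cases for higher and 17 of 36 for lower. Without standardisation the higher and lower counts were 397 and 71 in anti-IL-2 CD4, 157 and 23 in anti-IL-2 CD8, and 99 and 10 in tacrolimus CD8 cells, and 236 were higher in tacrolimus CD4 cells. Thinned to 5000 UMIs they were 29 and 21 in anti-IL-2 CD8, 76 and 27 in tacrolimus CD4, and 21 and 5 in tacrolimus CD8 cells. A ratio of 2 left 87 and 48, 19 and 16, 47 and 24, and 7 and 4 in anti-IL-2 CD4, anti-IL-2 CD8, tacrolimus CD4 and tacrolimus CD8 cells. A minimum share of 2% gave 264 higher in anti-IL-2 CD4, 71 higher and 96 lower in anti-IL-2 CD8 (lower genes then outnumber higher ones), 74 lower in tacrolimus CD4, and 69 and 53 in tacrolimus CD8 cells. With 10% there were 107 higher in anti-IL-2 CD4, 23 and 19 in anti-IL-2 CD8, 21 lower in tacrolimus CD4, and 19 and 9 in tacrolimus CD8 cells. With Ifng-positive set at 2 UMIs, 191 were higher in tacrolimus CD4, and 79 and 30 were higher and lower in tacrolimus CD8 cells.

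Alternatives added after seeing the data (Cst3 not counted as a myeloid marker, cells with 3 NK markers left out, and cells with 2 division genes left out) changed no other call on a member. Cst3 was in 80.9% of kept anti-IL-2 and 90.7% of kept tacrolimus cells. Thinned to 5000 UMIs, Csf2 stayed above in Ifng-positive cells (ratios 2.66 in anti-IL-2 CD8, 1.96 in tacrolimus CD4 and 2.51 in tacrolimus CD8) at shares under 5%. Without depth matching, the Csf2 ratio between treatments in CD4 cells was 0.291. The tacrolimus share was then 5.02%, so this difference passed the size rule as lower, which it did not with depth matching. Csf2 comparisons rest on 4 to 35 positive cells per gate and library.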

Other observations

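Cells outside the gates also held the 3 genes. Cells with both Cd4 and Cd8a or Cd8b1 had Ifng in 33 of 96 cells of the anti-IL-2 library (34.4%) and 26 of 87 of the tacrolimus library (29.9%), Csf2 in 3 and 9 cells (3.12% and 10.3%) and Il12rb2 in 24 and 49 cells (25.0% and 56.3%). Cells with neither had Ifng in 0 of 33 anti-IL-2 cells (this 0 allows up to 9.09%) and 6 of 39 tacrolimus cells, Csf2 in 0 and 0, and Il12rb2 in 4 and 11.

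Among cells with markers of B, plasma or erythroid cells, those that also had Cd4, Cd8a or Cd8b1 held Ifng in 9 of 25 cells of the anti-IL-2 library and 2 of 7 of the tacrolimus library. A single anti-IL-2 cell of this kind carried 76 Ifng UMIs, more than the 44 of the highest gated cell, and a Csf2 count of up to 5 was seen among them. These cells had median depths of 17260 and 20198 UMIs. Whether they are doublets was not tested.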
